A study of Mus musculus with 6 samples.

Results

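The genes described here are 187 mouse genes with more ribosome footprints in the leader of their mRNA, the 5' UTR, than in the coding sequence (CDS). They were chosen from raw counts: a gene needed at least 60 CDS counts over 6 libraries, and its 5' UTR count had to exceed its CDS count both in the 3 resting libraries summed and in the 3 activated libraries summed. Of 22322 genes in the deposited table, 6923 reached the CDS minimum, and the 187 genes are 2.70% of these. The rule used the 5' UTR and CDS counts of every library, so the height of the ratio is described below without a test. The rule did not compare activated with resting cells, so the change of each region between the groups was tested. The CDS minimum is not neutral for that change: a gene with fewer than 30 CDS counts in a group reached 60 only by having more in the other. This holds for 34 members in resting and 13 in activated cells, and call counts are therefore also given for the 140 members with at least 30 CDS counts in each group. That minimum is not neutral either: it removes more members low in resting cells, whose libraries had fewer CDS counts (mean 532509 against 832238).

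All 6 libraries come from CD4+ T cells, the helper T lymphocytes, of 6-week-old female C57BL/6J mice. The cells were purified from spleen and lymph nodes by negative selection. Resting cells were left unstimulated, and activated cells received beads that carry CD3 and CD28 antibodies. These ligate the antigen receptor complex and its main costimulator; the sources used here do not give the length of the stimulation. Every library is labelled untreated at 0 h, the point before the transcription and translation inhibitors that the wider study used to follow mRNA decay. The labels give biological replicates 2, 3 and 4 in each group, and values by library are printed in that order throughout. They do not say whether these were separate animals, cultures or pools, so p-values reflect library-to-library spread, which may be technical. The check of the cells against T cell markers could not be run: the counts carry Ensembl IDs alone, and the gene names used here came without them.

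In ribosome profiling, nuclease-protected mRNA fragments mark where ribosomes sat. Ribosomes usually enter at the mRNA cap and scan the leader for a start codon. Many leaders contain short upstream open reading frames; a ribosome that translates one of them leaves footprints in the leader and often does not reach the main start codon. Atf4, a transcription factor of the stress response, is the textbook case: upstream frames hold its coding sequence at low translation until initiation factors become limiting. A leader count does not identify an upstream frame, since the table gives no position within the leader and no reading frame.

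None of the 22322 IDs could be paired with a gene symbol, because the gene names used here, for GRCm38.p6, came without Ensembl IDs. Genes are therefore given by versioned Ensembl ID, and no function and no sequence is stated for them. The table also gives no region lengths. A ratio of 5' UTR to CDS counts is thus a ratio of counts and not of densities, and the heights, cut-offs and bands given below are not corrected for the lengths of leader and CDS. Whether a second gene overlaps a leader on either strand is not known here, because the sources used here do not give the strand setting.

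Total CDS counts ranged from 437200 to 1074656 per library and total 5' UTR counts from 62055 to 153868. The 187 genes held few coding footprints and many leader footprints. Their CDS counts over 6 libraries ran from 60 to 2682 with a median of 118, and their 5' UTR counts from 69 to 3752 with a median of 235. Among the 6736 other genes over the same CDS minimum, the median 5' UTR count was 22. The 10 members with the most leader counts held 27.1% of all leader counts of the members.

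**Figure D1:**
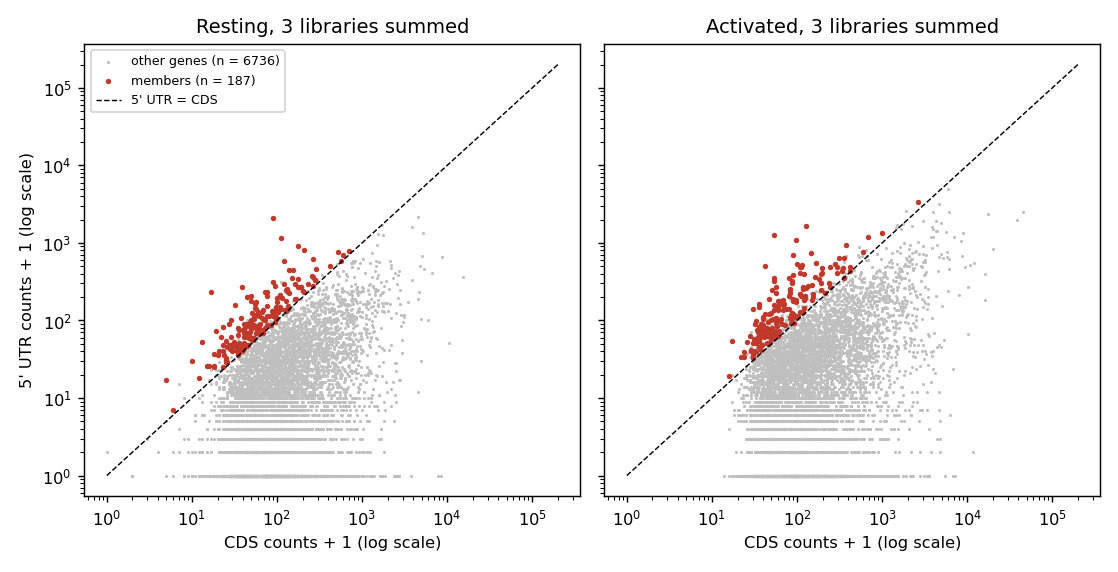
Summed 5' UTR counts (y axis, counts + 1, log scale) against summed CDS counts (x axis, counts + 1, log scale) in resting (left) and activated (right) libraries, 1 point per gene with at least 60 CDS counts. The 187 members (red) lie above the dashed line of equal counts in both panels because the rule asks for it, and most lie close to it.

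Most members stood only a little above the limit. Per 100 CDS counts, the median member had 152 leader counts in resting cells and 177 in activated cells, each from the 3 libraries summed. The lower and upper quartiles of the members lay at 122 and 203 in resting cells and at 134 and 242 in activated cells. In both groups, 131 members had at least 120 leader counts per 100 CDS counts, 78 at least 150, 38 at least 200, 20 at least 300 and 5 at least 500. In 2 members, leader counts were at least 10 times the CDS counts in both groups.

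The excess of leader counts was present in every library for 94 members. It was present in 5 libraries for 59 members, in 4 for 30 and in 3 for 4. These 93 members met the rule through sums and not in each library. Of the members closest inside the ratio limit, a gene with 351 CDS and 353 leader counts in activated cells was the nearest, followed by genes with 95 and 96 and with 67 and 68 in resting cells. The closest genes outside it had equal counts in a group, at 38 and 38 in activated cells, 4 and 4 in resting cells, and 35 and 35 in resting cells. At the CDS minimum, 3 members had exactly 60 counts, and the closest genes outside had 58, 58 and 59. A further 485 genes had more leader than coding counts in both groups but fewer than 60 CDS counts. Among genes over the minimum, 47 had the excess in resting cells alone and 113 in activated cells alone, and these are not members.

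The counting of footprints at the border of the coding sequence mattered for some members. The deposited table has a second CDS column, counted in the mode called intersection-nonempty, which also takes fragments that lie partly outside the CDS. It added 15.2 counts per 100 CDS counts over the members together and 9.93 over the other genes over the minimum. In the median gene it added 7.88 and 6.90. Against this column, 148 members kept more leader than coding counts in both groups and 39 did not. Applied afresh to this column, the whole rule gives 156 genes.

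For 182 members the leader, coding (intersection-nonempty) and 3' UTR counts summed to the exon counts within 1%. For 3 members (1.60%) the sum exceeded the exon counts by more than 5%, reaching 767.5% of them in the most extreme case. Among other genes over the minimum this held for 136 (2.02%).

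Regions that the rule did not use held few footprints of the members. Over the 6 libraries together, the 3' UTR held 1.81% of their exon counts, against 0.920% for the other genes. In the median gene it held 1.26% and 0.617%. Intronic counts came to 1.30 per 100 exon counts in the members and 2.73 in the other genes, and to 0.465 and 0.397 in the median gene. A 3' UTR share of at least 10% was found in 2 of the 187 members and in 69 of the 6733 other genes with exon counts.

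As a set, the members took a larger part of all leader footprints in resting than in activated cells. They held 13.3%, 12.9% and 13.4% of all 5' UTR counts in the resting libraries, and 11.2%, 11.1% and 11.1% in the activated ones. Counting error alone, as a 95% Wilson interval, extends these shares by at most 0.268 percentage points to either side. All resting libraries lay above all activated libraries. Their share of all CDS counts was 0.998%, 1.02% and 1.05% in resting libraries and 0.936%, 0.807% and 0.864% in the activated ones, again without overlap and with intervals reaching at most 0.0295 points to either side. Of 3' UTR counts they held 1.96%, 1.38% and 2.02% in the resting libraries and 2.20%, 2.21% and 2.22% in the activated ones. These shares describe a set that was chosen on the same counts and were not tested. Relative to library totals alone the typical gene fell as well. The median log2 change of all genes tested was then -0.38 in the CDS and -0.22 in the 5' UTR, so the lower shares are not particular to the members.

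**Figure D2:**
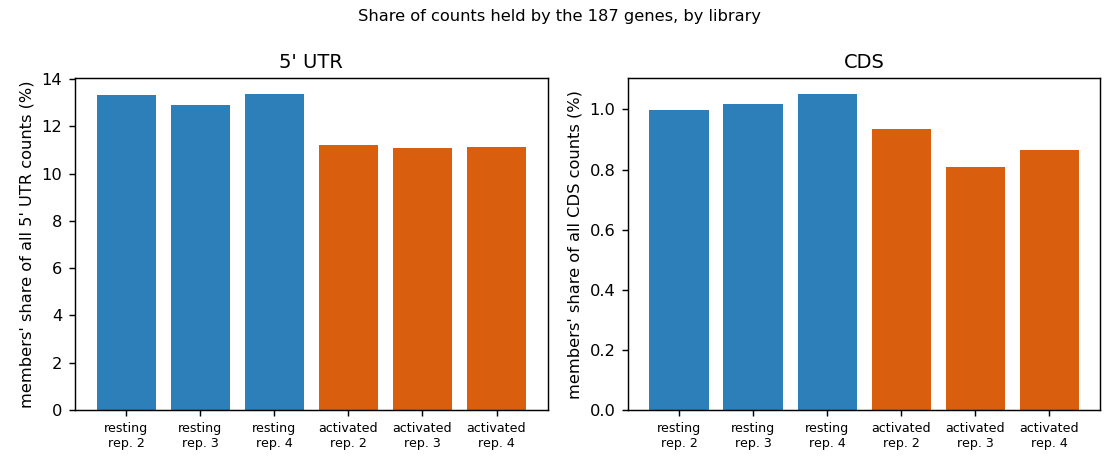
Share of all 5' UTR counts (left, percent) and of all CDS counts (right, percent) held by the 187 genes in each library, 1 bar per library. In both regions the resting libraries (blue) lie above the activated libraries (orange), at 12.9% to 13.4% against 11.1% to 11.2% for the 5' UTR. Relative to library totals alone, the median gene tested was lower in activated cells too.

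Summed over the members, there were 190, 197 and 178 leader counts per 100 CDS counts in the resting libraries, and 240, 208 and 184 in the activated ones. The groups overlapped, and activated replicate 2 was highest. The same library was highest among the other genes over the minimum, which had 11.6, 12.8 and 11.5 leader counts per 100 CDS counts in the resting libraries and 17.0, 12.9 and 12.3 in the activated ones. Without that library the median member had 171 leader counts per 100 CDS counts in activated cells summed, against 177 with it. The member median was 164, 163 and 149 in resting libraries and 234, 177 and 166 in the activated ones, in which all activated libraries lay above all resting libraries.

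Coding footprints of the members changed in both directions on activation, with more falls than rises. Of the 174 members tested, CDS counts rose in 32 and fell in 48 (edgeR quasi-likelihood test, adjusted p under 0.05), by at least 2-fold in 27 and 39 (14.7% and 10.9% of all genes tested). The calls are 46.0% of the members tested, against 45.5% of all 6775 genes tested. The shares by direction were 18.4% higher and 27.6% lower among members, against 24.1% and 21.4% of all genes. The median log2 change was -0.23 over the members and -0.04 over all genes tested. With at least 30 CDS counts in each group, 14 members rose (10.2%) and 40 fell (29.2%) of 137 tested, against 22.8% and 20.5% of all 6194 genes tested over the same minimum. Rises went from 32 to 14 and falls from 48 to 40, so this minimum itself removed mainly rises and is no independent measure of the gap. The groups did not overlap in 43 members that were higher and 56 that were lower, against 28.1% and 26.7% of all genes tested. Members had fewer CDS counts than the typical gene tested (medians of 118 and 249). In these bulk libraries, fewer cells of a type and less RNA per cell cannot be told apart.

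The 13 members that were not tested had 60 to 86 CDS counts and missed the low-count filter. Their mean CDS level in activated cells was 0.386 to 2.76 times that in resting cells, and it was above the resting level in 6 of them. With no filter all 187 members were tested, and 34 rose (18.2%) and 47 fell (25.1%), against 14.4% and 11.2% of all genes. DESeq2 tested all 187 and gave 27 higher (14.4%) and 29 lower (15.5%), against 16.7% and 10.0% of all genes. Library totals alone, without TMM scaling, moved the median of all genes to -0.38 and gave 27 members higher (15.5%) and 70 lower (40.2%), against 16.2% and 37.8% of all genes, so that members lay near the background.

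Leader footprints also changed in both directions. Of 186 members tested, 5' UTR counts rose in 35 and fell in 53, by at least 2-fold in 24 and 36 (17.8% and 15.1% of all genes tested). The remaining member missed the low-count filter. Together these are 47.3% of the members tested, against 42.0% of all 2200 genes tested. Members had more leader counts than the typical gene tested (medians of 235 and 129), and a change is called more easily at higher counts. By direction, 18.8% of members were higher and 28.5% lower, against 22.2% and 19.8% of all genes. The median log2 change was -0.24 over the members and 0.02 over all genes tested. With at least 30 CDS counts in each group, 17 members rose (12.1%) and 45 fell (32.1%) of 140 tested, against 21.6% and 19.2% of all 1980 genes tested over the same minimum. Here too the minimum removed mainly rises, from 35 to 17, against 53 to 45 for falls. The groups did not overlap in 41 members that were higher and 70 that were lower, against 26.9% and 26.1% of all genes tested. Library totals alone moved the median of all genes to -0.22 and gave 25 higher (13.4%) and 73 lower members (39.2%), against 16.6% and 27.0% of all genes. Upper quartile factors gave 27 (14.5%) and 64 (34.4%), against 19.0% and 23.5%. DESeq2 gave 29 higher (15.5%) and 38 lower (20.3%), against 10.9% and 6.69% of 3331 genes. With no filter there were 36 (19.3%) and 42 (22.5%), against 7.65% and 4.84% of 8868 genes. With DESeq2 or no filter, members thus exceeded all genes in both directions, and more genes with low counts were in the comparison. Without resting replicate 3, 22 members were higher (11.8%) and 46 lower (24.6%), against 13.7% and 13.8% of all genes. Leader and coding changes rest on the same 6 libraries and are therefore set side by side and not correlated.

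**Figure D3:**
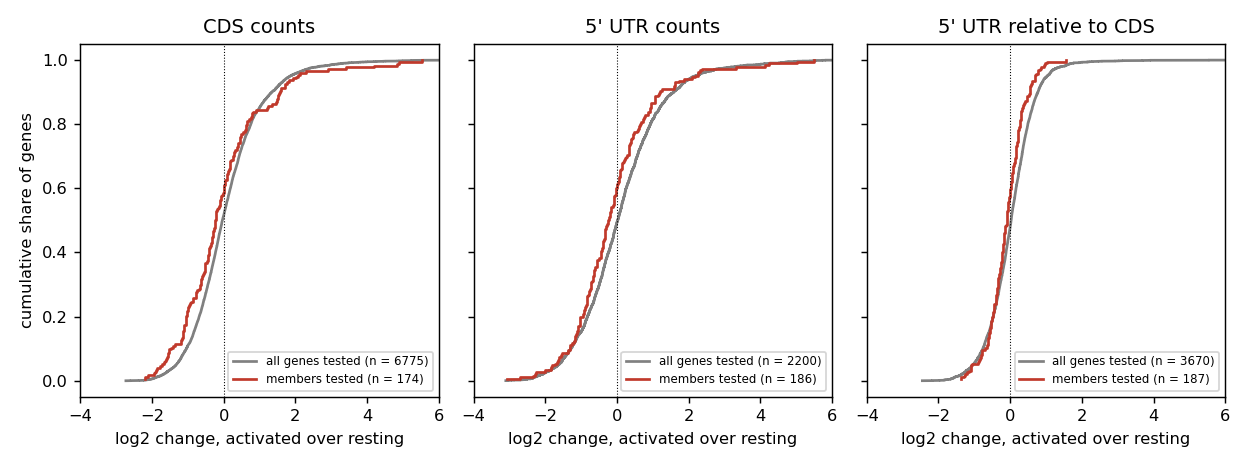
Cumulative share of genes (y axis) by log2 change, activated over resting (x axis), for CDS counts, 5' UTR counts and 5' UTR counts relative to CDS counts, with members in red and all genes tested in grey. The members' curves lie to the left of the grey curves around the middle, with medians of -0.23 against -0.04, -0.24 against 0.02, and -0.09 against 0.03.

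Members at different heights of the ratio moved in both directions. Of the 109 members whose lower ratio was under 150 leader counts per 100 CDS counts, leader counts rose in 21 and fell in 24 of 108 tested, near the 22.2% and 19.8% of all genes tested. Between 150 and 200 (40 members) they rose in 5 and fell in 14, and between 200 and 300 (18 members) in 3 and 6. At 300 or above (20 members) they rose in 6 and fell in 9. CDS counts of these 20 members rose in 5 and fell in 5 of the 18 tested, against 24.1% and 21.4% of all genes tested. These upper bands hold few members.

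The member with the largest rise in coding footprints was ENSMUSG00000036931.13. It had 10, 20 and 20 CDS counts in the resting libraries, and 842, 817 and 973 in the activated ones. Its leader counts were 30, 42 and 53 in resting and 1002, 1173 and 1244 in activated libraries. In both regions every activated library was far above every resting library. Its CDS level was 28.1 ± 6.16 CPM (counts per 1e6 counts of the same region; SD, n = 3) in resting and 1325 ± 509 CPM in activated cells. Its 50 resting CDS counts are under the minimum of 60, which it passed through the activated libraries. For that reason its changes are given as a description, with no p. The log2 change in the CDS was 5.52 (SE 0.29). Its 5' UTR level was 602 ± 100.1 CPM (SD, n = 3) in resting and 11426 ± 1463 CPM in activated cells, which is 4.24 on the log2 scale (SE 0.24).

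ENSMUSG00000037211.11 and ENSMUSG00000038037.4 had almost no footprints in resting cells. They reached the CDS minimum through the activated libraries and so had to differ; their changes are given as a description, with no p. ENSMUSG00000037211.11 had 0, 2 and 4 leader counts in resting libraries and 165, 105 and 125 in the activated ones, and its CDS counts were 4, 0 and 1 against 58, 42 and 91. The log2 change was 5.51 in the leader (SE 0.53) and 4.89 in the CDS (SE 0.57), 6.36 in the leader without resting replicate 4, and 6.56 in the CDS without resting replicate 2. Its place among the members rests on 6 leader against 5 coding counts in resting cells, so its resting ratio is hardly determined.

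ENSMUSG00000038037.4 had 3, 7 and 6 leader counts in resting libraries and 261, 231 and 253 in the activated ones. Its CDS counts were 1, 1 and 2 in resting and 55, 33 and 56 in activated libraries, so that leader counts exceeded coding counts in each of the 6 libraries. The log2 change was 5.02 in the leader (SE 0.34) and 4.84 in the CDS (SE 0.58).

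ENSMUSG00000050592.8 fell in both regions. It had 99, 127 and 115 leader counts in resting libraries and 23, 33 and 20 in the activated ones. Its CDS counts were 59, 70 and 49 in resting and 13, 21 and 14 in activated libraries. The groups did not overlap in either region. The log2 change was -2.71 in the leader (SE 0.27) and -2.19 in the CDS (SE 0.29). Its 48 activated CDS counts are under the CDS minimum, which it passed through the resting libraries, so no p is given.

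ENSMUSG00000034881.7 had the largest fitted difference downward in leader counts, from 30, 37 and 37 in resting libraries to 6, 9 and 3 in the activated ones. Its CDS counts were 17, 13 and 22 in resting and 2, 5 and 8 in activated libraries. The log2 change was -3.05 in the leader (SE 0.38) and -2.10 in the CDS (SE 0.39). With 15 CDS counts in activated cells it could reach the minimum only with more in resting cells, so no p is given. In activated replicate 4 its 3 leader counts were fewer than its 8 coding counts, and it met the rule in the sum.

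ENSMUSG00000074497.4 had the largest fall in the CDS, from 37, 48 and 41 counts in resting libraries to 12, 13 and 8 in the activated ones. Its leader counts were 57, 103 and 83 in resting and 12, 32 and 30 in activated libraries. The log2 change was -2.20 in the CDS (SE 0.33) and -2.28 in the leader (SE 0.27). Its 33 activated CDS counts are under the CDS minimum, which it passed through the resting libraries, so no p is given. The CDS changes of ENSMUSG00000074497.4 and ENSMUSG00000050592.8 differed by less than their standard errors.

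**Figure D4:**
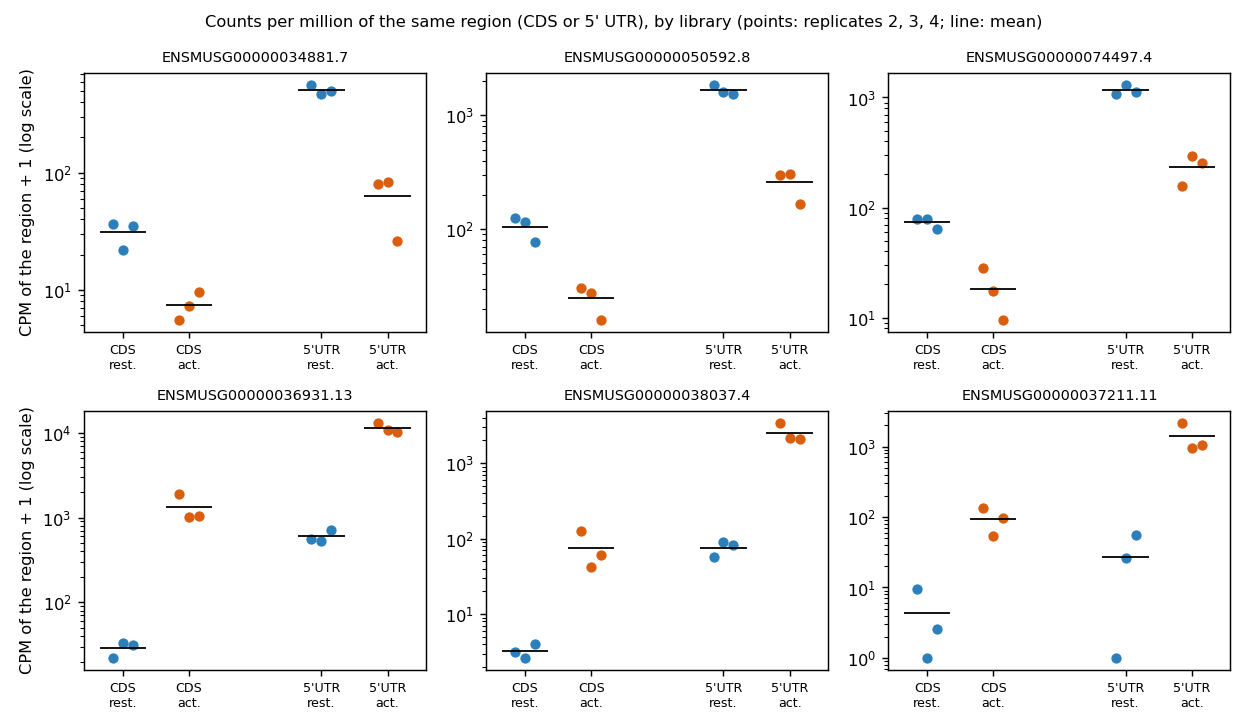
CPM of the same region plus 1 (y axis, log scale) in each library for the members with the largest falls (top row) and rises (bottom row), with CDS and 5' UTR counts in resting (blue) and activated (orange) cells; points are replicates 2, 3 and 4 and lines their means. CDS and 5' UTR values are scaled to different totals and are not comparable with each other; in all 6 genes the groups do not overlap in either region.

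Relative to the CDS, no member's leader counts changed past the threshold. Of 187 members tested, 0 passed an adjusted p under 0.05 in edgeR, against 0.518% of all 3670 genes tested (19 genes). DESeq2 also gave 0. At an unadjusted p under 0.05 there were 18 members in edgeR, 7 higher and 11 lower, against 10.8% of all genes tested. DESeq2 had 9 members at that level (4.81%), against 4.93% of all genes tested. The rule bears on this count: a member whose ratio crossed 1 between the groups would not be a member, so large falls from a modest ratio cannot occur among these genes. A p that misses the threshold does not show that the ratios are equal.

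The direction of the typical ratio depended on the scaling. In raw counts, the summed ratio was higher in activated cells in 121 members and lower in 66, by at least 2-fold in 10 and 2. The same count was not made over all genes, so these numbers are not read as a trait of the members. With 1 scaling for both regions, the median log2 change of the ratio was 0.19 over the members and 0.33 over all genes tested. With each region scaled on its own, it was -0.09 over the members and 0.03 over all genes. With library totals alone it was 0.12 and 0.24. Under these 3 scalings the members' median lay below that of all genes.

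The lowest p for the ratio belonged to ENSMUSG00000036931.13, the gene with the largest coding rise, which was chosen here after its values were seen. It had 300, 210 and 265 leader counts per 100 CDS counts in the resting libraries, and 119, 144 and 128 in the activated ones. All activated libraries lay below all resting libraries. The log2 change of the ratio was -1.28 (SE 0.32). It was -1.40 without activated replicate 4, -1.25 with a looser count filter and -0.95 with 1 scaling for both regions. The ratio uses the CDS counts through which this gene passed the minimum in activated cells, so its p is not printed. That p missed the threshold in the main fit and passed it in some of the alternatives run.

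ENSMUSG00000072772.3, also chosen after its values were seen, had the most leader counts of all members and the next lowest p. It had 606, 734 and 743 leader counts in resting libraries and 323, 800 and 546 in the activated ones, against 21, 35 and 32 CDS counts in resting and 49, 32 and 44 in activated libraries. Per 100 CDS counts these are 2886, 2097 and 2322 in resting libraries and 659, 2500 and 1241 in the activated ones, so the groups overlapped through activated replicate 3. The log2 change of the ratio was -1.25 (SE 0.38, edgeR adjusted p = 0.151), -1.76 without activated replicate 3 (edgeR adjusted p = 0.0478) and -0.63 without activated replicate 2 (edgeR adjusted p = 0.487). Over the alternatives run, the adjusted p ran from 0.0254 to 0.916. Tested by themselves its leader counts fell: the level was 10198 ± 1044 CPM in resting and 5382 ± 1728 CPM in activated cells (SD, n = 3), and the log2 change was -0.92 (SE 0.23, edgeR adjusted p = 0.00510).

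The 4 members with the most leader counts also include ENSMUSG00000039264.9 and ENSMUSG00000030742.6, named for that count after their values were seen. ENSMUSG00000039264.9 had 1128, 879 and 1139 leader counts per 100 CDS counts in resting libraries and 778, 1189 and 1234 in the activated ones, and the groups overlapped. Its leader counts were 327, 413 and 410 in resting and 179, 321 and 580 in activated libraries, a log2 change of -0.73 at TMM-scaled depth (SE 0.25, edgeR adjusted p = 0.0296). That fall missed the threshold with no filter on low counts (edgeR adjusted p = 0.0601) and without each of resting replicates 2, 3 and 4 and activated replicates 2 and 3 in turn (adjusted p 0.0542 to 0.128).

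ENSMUSG00000030742.6 had 143, 154 and 144 leader counts per 100 CDS counts in resting libraries and 187, 177 and 166 in the activated ones. Its counts were 201, 314 and 254 in the leader and 141, 204 and 176 in the CDS of resting libraries, and 282, 501 and 409 in the leader and 151, 283 and 247 in the CDS of activated libraries. All activated ratios lay above all resting ratios in raw counts. The fitted log2 change turned with the scaling: it was -0.07 with each region scaled on its own (edgeR adjusted p = 0.956), whereas a scaling shared by the regions gave 0.26 (edgeR adjusted p = 0.688).

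In ENSMUSG00000029640.16, chosen after its values were seen, 1 library held 82.4% of all leader counts. It had 36, 40 and 32 leader counts in resting libraries and 1145, 114 and 22 in the activated ones, while its CDS counts were 6, 14 and 17 in resting and 8, 25 and 19 in activated libraries. Activated replicate 4 lay below every resting library and activated replicate 2 far above. The log2 change of the leader was 3.33 (SE 0.98, edgeR adjusted p = 0.0137), and without activated replicate 2 it was 0.23 (edgeR adjusted p = 0.694). It also missed the threshold without resting replicate 3 or 4 (adjusted p = 0.0826 and 0.0580), in DESeq2 (0.0919) and with the replicate block (0.155). In no other member did 1 library hold more than 44.1% of the leader counts.

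**Figure D5:**
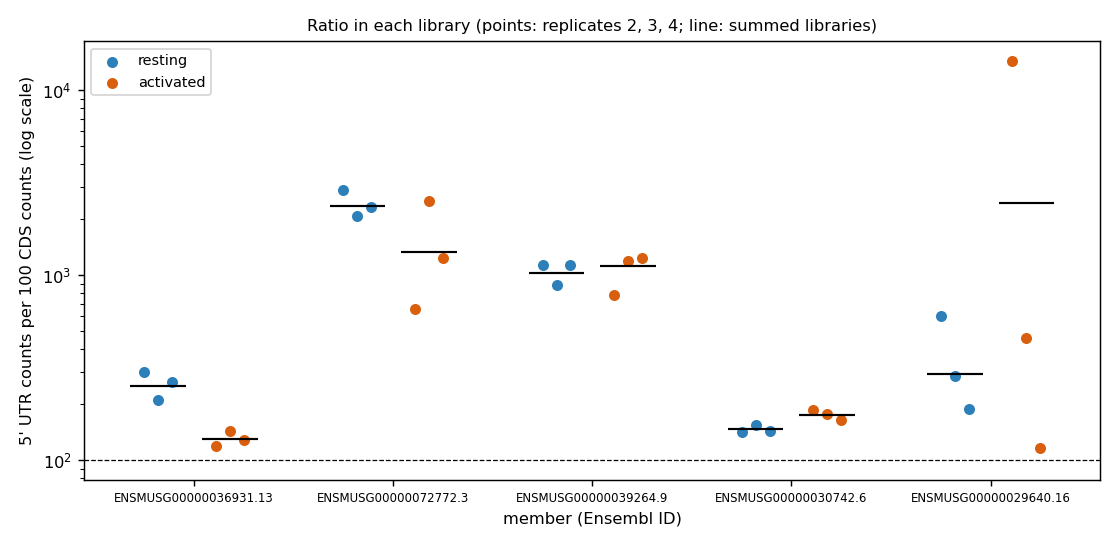
Leader counts per 100 CDS counts (y axis, log scale) in each library for the 5 members described by their ratio, in resting (blue) and activated (orange) cells; points are replicates 2, 3 and 4, black lines the ratio of the summed libraries, and the dashed line marks equal counts. The groups separate for ENSMUSG00000036931.13 and ENSMUSG00000030742.6 and overlap for the other 3, and 1 activated library of ENSMUSG00000029640.16 lies far above its group.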

How the data were processed

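The authors deposited 1 table of raw counts per gene for 6 ribosome profiling libraries, with 36 columns of counts, of which each library has 6; per the file headers they hold CDS, CDS in intersection-nonempty mode, 5' UTR, 3' UTR, exon and strictly intronic counts. Per the submitters' processing notes, the tools were TopHat2 2.0.13, Bowtie 1.1.1.0 and HTSeq on build mm10. The sources used here do not give the strand setting, annotation release, trimming, fragment length limits or removal of ribosomal RNA, and each could shift counts between leader and CDS. Summary rows that name no gene were left out.

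Each region was tested over all genes with edgeR 4.0.16 in R 4.3.3 (filterByExpr, TMM, glmQLFit, glmQLFTest, two-sided, Benjamini-Hochberg, threshold 0.05). Library sizes were sums over the genes tested, and CPM values are scaled by TMM. The ratio was tested as a region term in activated cells, in 1 model with a term per library, TMM within each region, and at least 5 counts in 3 libraries in both regions. SE is the change over the square root of F. DESeq2 1.42.0 and the other alternatives are in the closing section. The fits were tested on simulated data. Members and lists were chosen with earlier results of these data known. The planned gene lists, markers and names need symbols and were not used here: named members are the 2 largest changes each way per region among those past the threshold without overlap, and those said to be chosen after their values were seen. Sequences were not used here, for the same reason.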

Additional observations from a re-analysis of the deposited data

How the results depend on the processing

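The number of members was 278 with a CDS minimum of 30, 93 with a minimum of 120, 78 with a ratio above 1.5, 94 with the excess in each library, 156 with intersection-nonempty CDS counts, and 148 to 170 without each library. The median resting ratio was 138 per 100 CDS counts with intersection-nonempty counts against 152. With a ratio above 1.5 every member lies above 150 by definition, so the median under that rule is not comparable. Changed members numbered 67 to 76 in the CDS (31 to 36 higher, 36 to 45 lower) and 65 to 90 in the 5' UTR (22 to 36 higher, 38 to 54 lower) without each library. In the CDS these were 38.1% to 41.8% of members tested, against 37.2% to 42.6% of all genes (20.8% to 23.3% higher, 16.4% to 19.3% lower). In the 5' UTR they were 34.8% to 48.1%, against 27.5% to 42.2% (13.7% to 22.5% higher, 13.8% to 19.7% lower). DESeq2 gave 29 members lower in the CDS (15.5%, all genes 10.0%), where the main fit gave 48 (27.6%, all genes 21.4%). A further alternative, added after seeing the data, kept the 94 members with the excess in each library, so there are fewer members to count. CDS counts changed in 43 of 87 tested (15 higher, 28 lower), against 45.5% of all genes (24.1% higher, 21.4% lower). 5' UTR counts changed in 52 of 94 tested (17 higher, 35 lower), against 42.0% of all genes (22.2% higher, 19.8% lower). For the 140 members with at least 30 CDS counts in each group, also added after seeing the data, 14 were higher in the CDS and 17 in the 5' UTR. These were 10.2% and 12.1% of members tested, against 22.8% and 21.6% of all genes over that minimum, which itself removed mainly rises. Relative to the CDS, 0 to 1 members changed without each library, the 1 being lower, and 2 with at least 1 count in 3 libraries, both lower, against 0. Of all genes, 0.0576% to 0.686% changed without each library and 0.437% with at least 1 count in 3 libraries. The cause of these changes was not tested. The fit with a replicate block gave 85 members in the CDS (34 higher, 51 lower), 79 in the 5' UTR (30 higher, 49 lower) and 0 for the ratio. These were 48.9% and 42.5% of members tested in the CDS and the 5' UTR, against 50.9% and 37.1% of all genes, and 0.245% of all genes for the ratio. Across genes, libraries with the same number had deviations from the group mean that correlated at 0.12, 0.07 and 0.22 for replicates 2, 3 and 4. Libraries with different numbers gave -0.15 to 0.0037, so same-numbered libraries were the more alike. The labels do not say that the numbers pair libraries, and the main fits leave the number out. Whether same-numbered libraries share a source was not tested. Counts under 10 in every resting library limit what can be said of the resting ratios of ENSMUSG00000037211.11 and ENSMUSG00000038037.4.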
